A study of Rattus norvegicus with 16 samples.

Results

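Faim2 and 9 genes of the death receptor pathway (Fas, Tnfrsf1a, Fadd, Casp8, Cflar, Dapk1, Birc2, Birc3 and Xiap) were followed in INS1 β cells that overexpressed Pax5. The genes were chosen with earlier results of these data known. They were taken by symbol from the platform annotation, and all 10 were found among 15037 gene symbols on the array. Each is measured by a single one of 23188 transcript clusters, so no choice between clusters had to be made. The 832/13 INS1 line, a clonal rat insulinoma line kept in medium with 11.1 mM glucose, was transduced at an MOI of 1.25 for 24 h with a lentivirus for GFP (n = 8 arrays) or for Pax5 (n = 8 arrays) and collected at 72 h. The arrays come as 8 numbered experiments, and every experiment has both a GFP and a Pax5 array. According to the methods, the Pax5 transgene carried an HA tag and was driven by the human phosphoglycerate kinase promoter. All arrays come from virus-treated cells, and no untransduced cells were analysed here.

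Death receptors are membrane receptors of the TNF receptor superfamily that carry a death domain on their cytoplasmic side. At Fas, once the ligand binds, the domain recruits the adaptor Fadd, which gathers and activates caspase 8. The caspase-like protein encoded by Cflar (c-FLIP) competes for the same place. The inhibitor of apoptosis proteins (Birc2, Birc3 and Xiap) act on caspases and on signalling to NF-kB. Faim2, also called lifeguard, is a membrane protein of the TMBIM family, best known from neurons as an inhibitor of Fas-induced death. In islets, Fas and TNF receptor signalling is known for its part in cytokine-induced loss of β cells.

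Pax5 binds DNA through a paired domain, and NF-kB is the transcription factor downstream of TNF receptors, so the 250 bases before the annotated starts of the members were searched on both strands. Sequences of the GRCr8 build in the RefSeq table were matched for 6 of the 10 genes (Fas, Tnfrsf1a, Fadd, Cflar, Dapk1 and Birc2), and Faim2, Casp8, Birc3 and Xiap were not matched. A Pax5 core, GCGTGAC, was in none of the 6 and in 1.74% of 33469 promoters of the table. Its looser form, GNGTGAC, was in none of the 6 and in 10.9% of all. An NF-kB site was found in Fas, with its first base at -242 from the start and read on both strands, and in 6.33% of all promoters. A GC box, GGGCGG, was in Fas, Fadd and Dapk1 and in 30.5% of all. A match is a description of letters and not a bound site. The sequences of Cflar, Dapk1 and Birc2, members whose levels differed between the groups, and of Fas are shown 5′ to 3′, ending at the base before the start, with the NF-kB site of Fas and the GC boxes in capitals. Cflar and Birc2 hold neither motif.
Fas (chr1:241211905-241212154, plus strand): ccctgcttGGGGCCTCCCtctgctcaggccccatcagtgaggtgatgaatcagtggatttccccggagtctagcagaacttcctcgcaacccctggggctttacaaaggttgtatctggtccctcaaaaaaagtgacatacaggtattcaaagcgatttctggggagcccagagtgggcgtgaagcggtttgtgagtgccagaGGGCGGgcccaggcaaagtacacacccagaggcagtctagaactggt
Cflar (chr9:67679299-67679548, plus strand): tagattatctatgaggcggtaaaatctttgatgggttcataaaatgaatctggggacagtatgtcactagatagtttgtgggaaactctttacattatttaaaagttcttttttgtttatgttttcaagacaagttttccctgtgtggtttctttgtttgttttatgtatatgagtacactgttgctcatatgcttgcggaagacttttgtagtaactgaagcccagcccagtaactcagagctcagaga
Dapk1 (chr17:4096582-4096831, minus strand): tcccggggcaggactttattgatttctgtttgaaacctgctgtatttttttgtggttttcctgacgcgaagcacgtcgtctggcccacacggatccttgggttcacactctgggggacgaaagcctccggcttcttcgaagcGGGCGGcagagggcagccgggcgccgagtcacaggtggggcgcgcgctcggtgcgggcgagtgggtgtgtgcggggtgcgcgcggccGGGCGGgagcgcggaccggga
Birc2 (chr8:13271541-13271790, minus strand): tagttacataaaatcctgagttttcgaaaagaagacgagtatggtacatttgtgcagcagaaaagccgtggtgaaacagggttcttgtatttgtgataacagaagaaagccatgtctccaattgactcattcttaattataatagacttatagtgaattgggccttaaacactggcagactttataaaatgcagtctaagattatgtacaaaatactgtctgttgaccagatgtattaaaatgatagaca

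The values are log2 expression values after RMA, 1 per transcript cluster and array. A difference is the Pax5 value minus the GFP value of the same experiment, so that a difference of 1 on the log2 scale is a doubling, and the log2 fold change is the mean of the 8 differences. Values are compared only between arrays, never between genes. The test was limma with a term for each experiment (a block), and an adjusted p is its p after Benjamini-Hochberg correction for all clusters, read at 0.05. The Pax5 cluster, which reads the transgene, averaged 7.93 ± 0.409 in GFP cells and 17.26 ± 0.191 in Pax5 cells on the log2 scale (SD, n = 8 each), with differences from 8.63 in experiment 8 to 10.33 in experiment 1. Array medians lay between 6.98 and 7.01, and no pair of arrays correlated below 0.989 across clusters. Of 7 measured β cell markers, 1 rose and 2 fell, or 42.9%, where 30.7% of all clusters passed. Iapp was higher (log2 fold change 0.46, adjusted p = 4.82e-05, limma), while the glucose transporter Slc2a2 (-0.95, adjusted p = 1e-07) and the zinc transporter Slc30a8 (-0.40, adjusted p = 0.000862) were lower, each in 8 of 8 experiments. Ins1 and Ins2, which did not pass, had mean values from 17.29 to 18.30 in both groups. Glucagon (Gcg), a marker of α cells, had a mean of 17.35 in GFP and 18.09 in Pax5 cells, a log2 fold change of 0.74 (adjusted p = 3e-06, limma). Of the 5 measured markers of other islet endocrine cells, Gcg alone passed. Sst, Ppy, Ghrl and Hhex had log2 fold changes from -0.115 to 0.22 (lowest adjusted p = 0.0583, limma). The 6 exocrine and duct markers had log2 fold changes from -0.09 to 0.13 (lowest adjusted p = 0.359) and the 4 measured leukocyte markers from -0.01 to 0.16 (lowest adjusted p = 0.104). Of the 8 stromal and endothelial markers, Pdgfra was lower (log2 fold change -0.36). The part of these marker changes in the results was not tested.

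Arrays of the same experiment mirrored each other. Where a GFP array lay above the GFP mean of a cluster, its Pax5 partner tended to lie below the Pax5 mean (correlation of these deviations across clusters, -0.749 to -0.704). The members did the same. For all 10 of them the mean of both arrays of an experiment varied less from experiment to experiment than independent arrays would give, with a spread of 0.145 to 0.797 times the expected one (median over all clusters, 0.384). Values of single arrays are therefore tied within an experiment, and a high Pax5 value goes with a low GFP value. The sources used here do not say whether the values were adjusted for experiment before they were deposited. If they were, a single-array value is a level relative to its experiment. The differences of experiments 1 and 2 also resembled each other most. Their deviations from the mean difference correlated at 0.14 across clusters, while the other pairs of experiments lay between -0.32 and 0.04. The mean over all 28 pairs was -0.14. Deviations from a shared mean are tied to each other, so a mean below 0 is built in. The labels do not say whether the experiments were separate passages of cells, and p reflects no more than the spread among them.

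Of the 10 genes, 3 rose with Pax5 (Faim2, Dapk1 and Cflar) and 1 fell (Birc2) at an adjusted p under 0.05 from limma, which is 40.0% of them. In the same fit 30.7% of all 23188 clusters passed, 14.6% higher and 16.1% lower. With 10 genes, 4 calls are near this background, and the count itself is no result about the pathway. The log2 fold change was above 0 for 9 of the 10 genes, with a median of 0.15, while the median of all clusters was 0.00125. These 9 include the 6 genes that did not pass (adjusted p from 0.0679 to 0.918, limma). The median absolute log2 fold change was 0.16 for the 10 genes and 0.13 for all clusters. In Faim2 and Dapk1, the lowest Pax5 array lay above the highest GFP array. Groups without such overlap were seen for 16.7% of all clusters.

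**Figure D1:**
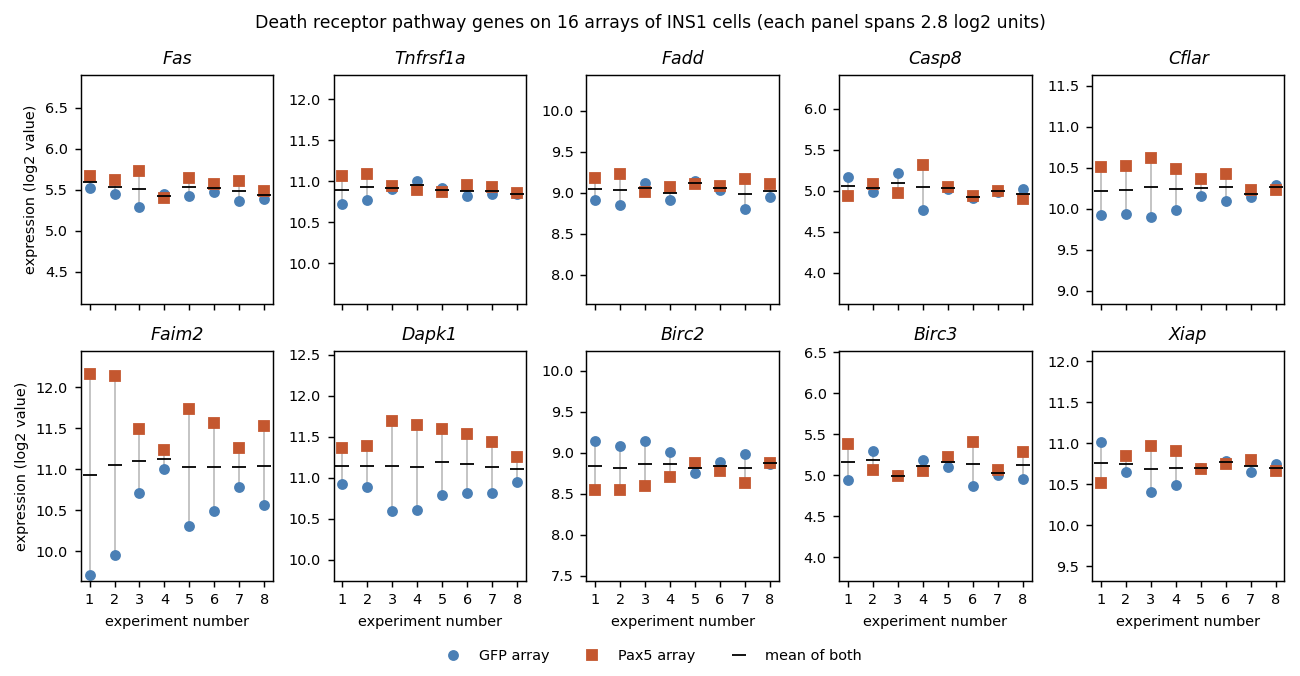
Log2 expression value (y axis) of the 10 genes by experiment number (x axis), with GFP arrays as blue circles, Pax5 arrays as orange squares and the mean of both as a black dash. Each panel spans the same number of log2 units. The Pax5 arrays of Faim2 (11.24 to 12.16) and Dapk1 (11.26 to 11.69) lie above all GFP arrays of the same gene, and the dashes stay nearly level.

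Faim2 had the largest change of the 10 genes, 2.29-fold higher in Pax5 cells (95% interval 1.72 to 3.06). In GFP cells the log2 values of experiments 1 to 8 were 9.71, 9.96, 10.71, 11.01, 10.31, 10.49, 10.79 and 10.56. In Pax5 cells they were 12.16, 12.14, 11.49, 11.24, 11.74, 11.56, 11.26 and 11.53. The GFP arrays of experiments 1 and 2 were the lowest and the Pax5 arrays of the same experiments the highest. The mean rose from 10.44 ± 0.434 to 11.64 ± 0.354 (SD, n = 8), a log2 fold change of 1.20 (SE 0.196, adjusted p = 0.000207, limma), and the difference was above 0 in 8 of 8 experiments. The exact permutation test, which flips the signs of the differences, gave a 2-sided p = 0.0078125, which is the least it can give with 8 pairs. Among all clusters, 170 had a larger log2 fold change.

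The size of the Faim2 difference varied widely. It was 2.45 in experiment 1 and 2.18 in experiment 2, then 0.78, 0.23, 1.43, 1.07, 0.47 and 0.97 in experiments 3 to 8, with a median of 1.02. The SD of these differences was larger than that of 99.8% of all clusters. The mean of both arrays of an experiment, in contrast, lay between 10.94 and 11.13 in all 8 experiments. Without experiments 1 and 2, a choice made after the values were seen, the log2 fold change was 0.83 (adjusted p = 0.0001, limma). RNA of whole cultures does not tell a higher level in each cell from a larger share of cells that carry the transcript.

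The experiments with the largest Faim2 differences were also those with the largest Pax5 differences, 10.33 in experiment 1 and 9.92 in experiment 2. Over the 8 experiments, Pearson's r between the Pax5 and the Faim2 difference was 0.68 (exact permutation test, p = 0.0669, adjusted p = 0.223 over 10 relations) and Spearman's rho was 0.48 (p = 0.243, adjusted p = 0.608). Without experiments 1 and 2, r was -0.28, so the relation rests on these experiments. Of the other 9 genes, Cflar had the highest rho, 0.75 (exact permutation test, p = 0.0382, adjusted p = 0.382), and none of the 10 relations passed after adjustment. Both differences contain the GFP array of the same experiment.

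Faim2 belongs to the TMBIM and FAIM genes, of which all 9 listed were measured. In this list 3 passed the test, Faim2 higher and 2 lower. That is 33.3%, near the 30.7% of all clusters. Ghitm, an inner mitochondrial membrane protein, had values from 14.69 to 15.59 (median 15.325) in GFP cells and from 13.92 to 14.50 (median 14.25) in Pax5 cells. The groups did not overlap, which was also seen for 16.7% of all clusters. Ghitm, named for the lowest p of its list, was 2.05-fold lower (log2 fold change -1.03, SE 0.124, adjusted p = 1.08e-05, limma) and fell in 8 of 8 experiments. Tmbim4, a relative found in the Golgi, was also lower, with a log2 fold change of -0.32 (adjusted p = 0.00487, limma) and a lower value in 7 of 8 experiments. Tmbim1 (0.23, adjusted p = 0.0546) and Grina (0.18, adjusted p = 0.0614) did not pass, nor did Tmbim6 (-0.11), the founding member of the family, Tmbim7 (-0.13), Fcmr (-0.11) and Faim (0.04), which shares with Faim2 the name but not the membrane-spanning fold. The number of higher genes in this family was 2 under quantile normalization, median centring, array weights, trended and robust eBayes and without experiment 3 or 8, and 3 without the block and without experiment 7.

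The differences of Faim2 were set against those of every named cluster over the 8 experiments. The most alike were those of Cds1, an enzyme of phospholipid synthesis (Pearson's r = 0.977), Sos2, an exchange factor for Ras (r = 0.977), and Mfsd11 (r = 0.974). The most opposite were those of Aspdh (r = -0.970), the mitotic kinase Bub1 (r = -0.967) and Sumo2 (r = -0.964). Likeness over experiments did not follow the direction of the mean change. Cds1 was higher in 8 of 8 experiments (log2 fold change 0.49, adjusted p = 0.000877, limma), while Sos2 was lower on average (-0.22, adjusted p = 0.0333), a call lost when any single one of experiments 3 to 8 was left out (adjusted p up to 0.0992). Over all clusters, 0.716% had an r with Faim2 above 0.9 in size, and the median size was 0.318. These values describe 8 experiments that all clusters share.

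Neither Fas nor Tnfrsf1a passed the test, while other death receptors did. Fas, the receptor of Fas ligand, had values from 5.29 to 5.52 (median 5.435) in GFP cells and from 5.40 to 5.73 (median 5.615) in Pax5 cells. The Pax5 array was higher in 7 of 8 experiments, all but experiment 4, and the groups overlapped. The log2 fold change was 0.17 (95% interval 0.03 to 0.32) with an adjusted p of 0.0679 from limma, and the exact permutation test of this gene alone gave p = 0.015625. Fas passed in the fit without the experiment block (adjusted p = 0.00786) and in the methods' paired test of each cluster (adjusted p = 0.0434), and in no other alternative tried.

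Tnfrsf1a, the TNF receptor with a death domain, ranged from 10.73 to 11.01 (median 10.84) in GFP cells and from 10.86 to 11.09 (median 10.935) in Pax5 cells. Its difference was 0.34 in experiment 1 and 0.32 in experiment 2 and at most 0.13 in the other 6 experiments, of which 2 were below 0. The log2 fold change was 0.10 (95% interval -0.05 to 0.25, adjusted p = 0.340, limma), and 0.02 without experiments 1 and 2. Of the 6 measured death receptors, the 2 that passed were others, or 33.3%, near the 30.7% of all clusters. Ngfr, the p75 neurotrophin receptor, ranged from 6.77 to 7.09 in GFP cells and from 7.36 to 7.87 in Pax5 cells (log2 fold change 0.68, adjusted p = 1.09e-05). Tnfrsf21, death receptor DR6, ranged from 8.30 to 9.0 in GFP cells and from 7.53 to 8.02 in Pax5 cells (-0.91, adjusted p = 6.15e-05). The groups of these genes did not overlap, which was also seen for 16.7% of all clusters. Ngfr and Tnfrsf21 moved in opposite directions. Among 12 other TNF receptors, Cd40 alone passed (0.22, adjusted p = 0.0492, limma), or 8.33%, against the 30.7% of all clusters. Cd40 passed in 4 of 15 alternatives. Its call was lost without experiment 2, 3, 4, 5, 7 or 8 (adjusted p up to 0.140). Among 13 measured ligands, Tnfsf9 alone passed (0.24, adjusted p = 0.0225, limma), or 7.69%. Its call was lost without experiment 2, 6 or 7 (adjusted p up to 0.0738) and without experiments 1 and 2 together (adjusted p = 0.0922). Cd40 and Tnfsf9 were among the dimmest 30% of clusters.

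At the receptor complex, Cflar rose while Fadd and Casp8 did not pass. Cflar encodes c-FLIP, which resembles caspase 8 but lacks its protease activity and can hold back its activation. Its values in experiments 1 to 8 were 9.92, 9.93, 9.90, 9.99, 10.15, 10.10, 10.14 and 10.29 in GFP cells. In Pax5 cells they were 10.51, 10.52, 10.62, 10.48, 10.36, 10.42, 10.23 and 10.23. The differences were 0.59, 0.59, 0.72, 0.49, 0.21, 0.32, 0.09 and -0.06, large in experiments 1 to 4 and small in experiments 7 and 8. The groups overlapped only through experiments 7 and 8, where the Pax5 arrays (10.23) lay below the highest GFP array (10.29). Cflar was 1.29-fold higher (95% interval 1.13 to 1.47; log2 fold change 0.37, SE 0.088, adjusted p = 0.0044, limma), and higher in 7 of 8 experiments (exact permutation test, p = 0.015625).

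Fadd, the adaptor, ranged from 8.81 to 9.14 (median 8.935) in GFP cells and from 9.01 to 9.23 (median 9.11) in Pax5 cells. It was higher in 6 of 8 experiments, with a log2 fold change of 0.15 (95% interval -0.000962 to 0.31, adjusted p = 0.127, limma), and passed only in the fit without the block (adjusted p = 0.0218). Casp8, the initiator caspase, ranged from 4.77 to 5.22 (median 5.0) in GFP cells and from 4.90 to 5.31 (median 4.985) in Pax5 cells. The difference was 0.54 in experiment 4, at most 0.10 in the other experiments and as low as -0.25 in experiment 3. The log2 fold change was 0.01 (95% interval -0.16 to 0.19, adjusted p = 0.918, limma), and -0.06 without experiment 4. Casp8 and Birc3 were among the dimmest 30% of clusters on these arrays, and background of single probes could not be examined. In the annotation, Casp8 and Cflar are neighbours on chromosome 9 whose annotated spans overlap.

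Of the 16 measured genes of the receptor complex list, 2 were higher and 1 was lower, or 18.8%, against the 30.7% of all clusters. Beside Cflar, these were the kinase Ripk2 (log2 fold change 0.33, adjusted p = 0.0213, limma) and Faf1, a Fas-associated factor, which fell in 8 of 8 experiments from 12.93 ± 0.061 to 12.54 ± 0.072 (SD, n = 8; log2 fold change -0.39, adjusted p = 0.000208). Ripk2 lost its call in the methods' paired test and without experiment 1, 2, 3 or 5, and had an adjusted p of 0.144 without experiments 1 and 2 together. Downstream, 9 genes of the caspase cascade were measured and 3 passed, or 33.3%. Casp6, an effector caspase, rose in 8 of 8 experiments (0.56, adjusted p = 7.19e-05), as did Dffb, the caspase-activated DNase (0.57, adjusted p = 4.9e-05). Bid, the BH3 protein that caspase 8 cleaves to reach the mitochondria, fell in 8 of 8 experiments (-0.63, adjusted p = 0.000252). The GFP and Pax5 arrays did not overlap for any of these 3 genes, which were named for the lowest p of their list. The same was seen for 16.7% of all clusters.

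Dapk1, a calmodulin-regulated kinase with a death domain, was the other gene of the set with clearly separate groups. Its log2 values in experiments 1 to 8 were 10.93, 10.89, 10.60, 10.61, 10.79, 10.81, 10.82 and 10.95 in GFP cells. In Pax5 cells they were 11.37, 11.39, 11.69, 11.65, 11.59, 11.53, 11.44 and 11.26. The lowest Pax5 array, experiment 8, lay above the highest GFP array, which came from the same experiment. Dapk1 was 1.61-fold higher (95% interval 1.42 to 1.84), with a mean of 10.80 ± 0.133 in GFP and 11.49 ± 0.15 in Pax5 cells (SD, n = 8; log2 fold change 0.69, SE 0.089, adjusted p = 2.16e-05, limma). The difference was above 0 in 8 of 8 experiments (exact permutation test, p = 0.0078125), largest in experiments 3 (1.09) and 4 (1.04) and smallest in experiment 8 (0.31). The experiments ranked differently for Dapk1 than for Faim2, whose differences were among the smaller ones in experiments 3 and 4.

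Of the 4 measured genes of the DAPK family, 2 were higher and 1 was lower, or 75.0%, against the 30.7% of all clusters. With 4 genes, this count is no result about the family. Dapk3, also called ZIP kinase, rose in 8 of 8 experiments from 10.27 ± 0.145 to 10.71 ± 0.079 (SD, n = 8; log2 fold change 0.44, adjusted p = 0.000214, limma), with groups that overlapped. Stk17b, also called DRAK2, fell in 8 of 8 experiments from 10.34 ± 0.105 to 9.94 ± 0.129 (-0.40, adjusted p = 0.00108). Dapk2 had a log2 fold change of 0.20 and did not pass (adjusted p = 0.0749).

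**Figure D2:**
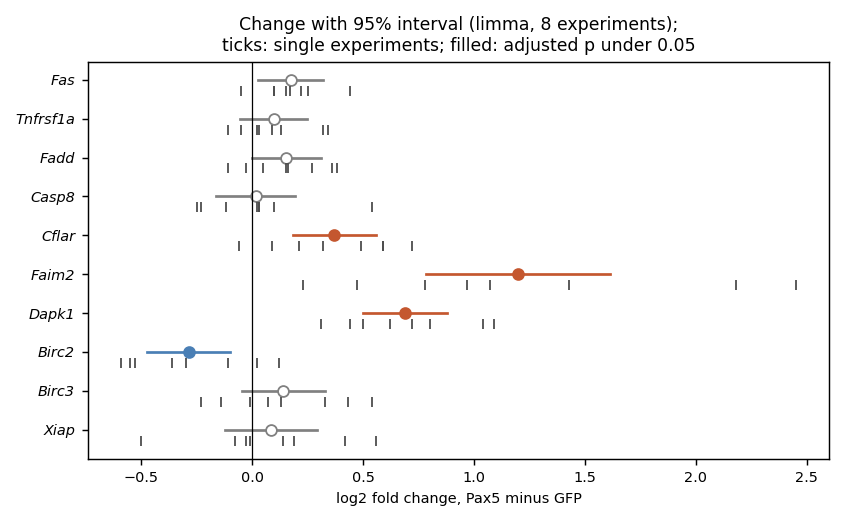
Log2 fold change of the 10 genes, Pax5 minus GFP (x axis), with the 95% interval from limma as a bar and the 8 single experiments as ticks under it. Filled points passed at an adjusted p under 0.05, orange higher and blue lower. Faim2 (1.20) has the widest spread of ticks, 0.23 to 2.45, and Dapk1 (0.69) and Faim2 alone have all ticks on one side of 0.

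Among the inhibitor of apoptosis proteins, Birc2 fell while Birc3 and Xiap did not pass. Birc2 (cIAP1) is a ubiquitin ligase of the TNF receptor complex. Its values in experiments 1 to 8 were 9.14, 9.08, 9.14, 9.01, 8.76, 8.89, 8.99 and 8.86 in GFP cells. In Pax5 cells they were 8.55, 8.55, 8.59, 8.71, 8.88, 8.78, 8.63 and 8.88. The Pax5 array was lower in 6 of 8 experiments, by 0.53 to 0.59 in experiments 1 to 3, and was higher in experiments 5 (0.12) and 8 (0.02), so the groups overlapped. Birc2 was 1.22-fold lower (95% interval 1.07 to 1.39; log2 fold change -0.29, SE 0.088, adjusted p = 0.0201, limma; exact permutation test, p = 0.046875). The call did not survive leaving out experiment 1 (-0.24, adjusted p = 0.0548), experiment 2 (-0.25, adjusted p = 0.0542) or experiment 3 (-0.25, adjusted p = 0.0593), nor the methods' paired test (adjusted p = 0.0681). Without experiments 1 and 2 the log2 fold change was -0.20 (adjusted p = 0.144).

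Birc3 (cIAP2), a close relative whose gene is next to Birc2 on chromosome 8 with no protein-coding gene between them, ranged from 4.87 to 5.30 (median 5.0) in GFP cells and from 4.99 to 5.41 (median 5.15) in Pax5 cells. Its differences lay between -0.23 in experiment 2 and 0.54 in experiment 6, with a log2 fold change of 0.14 (95% interval -0.05 to 0.33, adjusted p = 0.257, limma). Xiap, the member of the family that binds and blocks caspases directly, ranged from 10.41 to 11.01 (median 10.675) in GFP cells and from 10.51 to 10.97 (median 10.77) in Pax5 cells. Its differences were as low as -0.50 in experiment 1 and as high as 0.56 in experiment 3, with 4 experiments higher and 4 lower. The log2 fold change was 0.09 (95% interval -0.12 to 0.29, adjusted p = 0.556, limma). Of the 7 measured genes of this list, Htra2, a mitochondrial protease that can bind inhibitor of apoptosis proteins, was the other gene that passed (-0.31, adjusted p = 0.0173, limma). Its call was lost in the methods' paired test and without experiment 4 (adjusted p up to 0.0698 over the alternatives). The genes that passed are 28.6% of this list, near the 30.7% of all clusters.

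**Figure D3:**
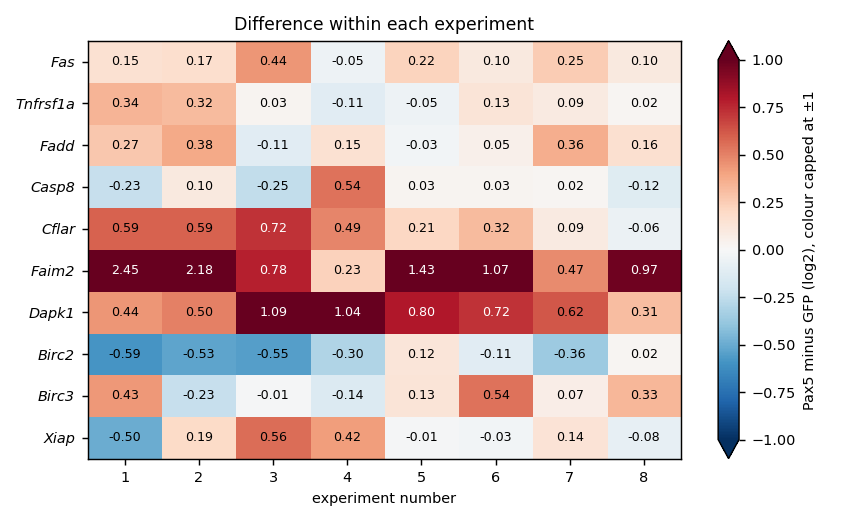
Difference of the Pax5 and the GFP array (log2, colour and printed value) for the 10 genes (rows) in experiments 1 to 8 (columns), with the colour capped at 1 in either direction. Faim2 peaks in experiments 1 and 2 (2.45 and 2.18), Dapk1 in experiments 3 and 4 (1.09 and 1.04), and Cflar and Birc2 move least in experiment 8 (-0.06 and 0.02).

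The wider pathway, without the 10 genes, comprised 84 measured genes of 103 listed. Of these, 10 were higher and 10 lower, or 23.8%, against the 30.7% of all clusters, with a median log2 fold change of 0.0225. In the NF-kB pathway, which TNF receptors feed through Birc2 and Birc3, 18 of 25 listed genes were measured, without Rel, Relb and Tnfaip3. Of these 18, 3 were higher and 3 lower, or 33.3%, near the 30.7% of all clusters. Of the inhibitors, Nfkbie fell in 8 of 8 experiments (log2 fold change -0.41, adjusted p = 0.00181, limma) and Nfkbib rose in 7 of 8 (0.24, adjusted p = 0.0259). Nfkbia did not pass (-0.07, adjusted p = 0.585). Of the kinase complex, Ikbkb rose in 8 of 8 (0.33, adjusted p = 0.00555) and Chuk fell in 8 of 8 (-0.30, adjusted p = 0.0137). Ikbkg did not pass (-0.10, adjusted p = 0.469). The subunit Nfkb2 fell (-0.39, adjusted p = 0.00398) and Sharpin, part of a ubiquitin ligase of the TNF receptor complex, rose (0.26, adjusted p = 0.0126), each in 8 of 8 experiments. Without experiments 1 and 2 the calls of Ikbkb (adjusted p = 0.0549), Sharpin (0.0541), Chuk (0.0761) and Nfkbib (0.0864) were lost. That of Nfkbib was also lost without experiment 1, 3 or 6 alone (adjusted p up to 0.0762), and those of Nfkbib and Chuk in the methods' paired test.

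**Figure D4:**
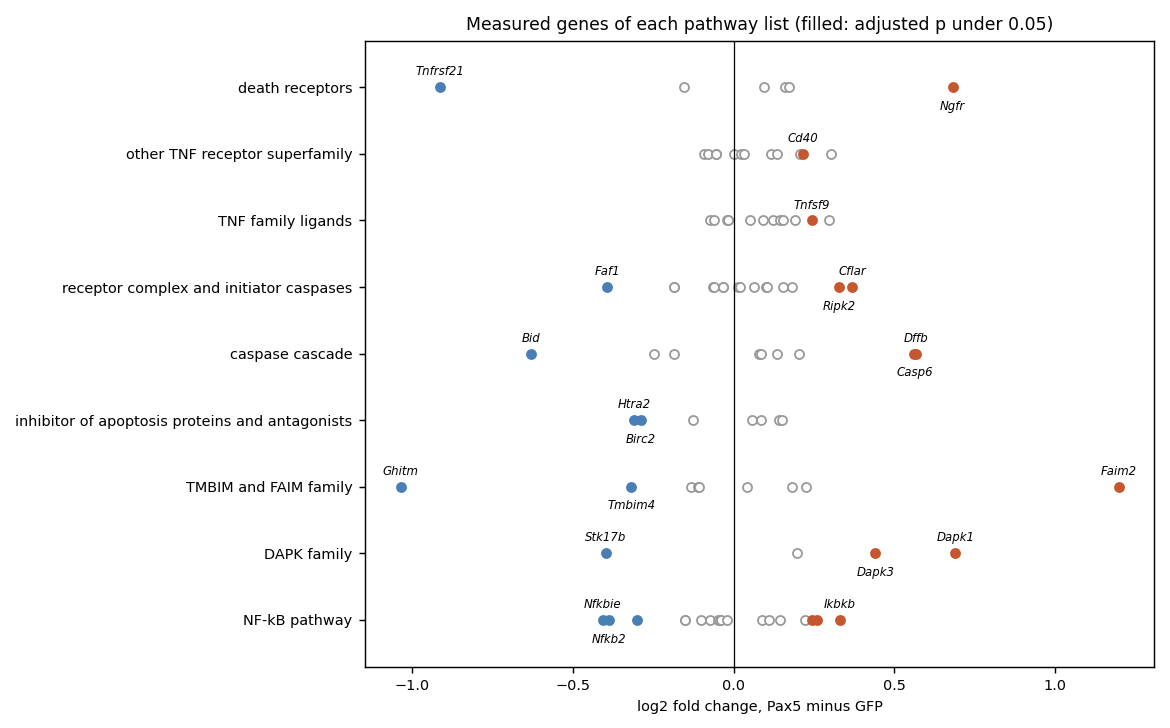
Log2 fold change, Pax5 minus GFP (x axis), of each measured gene (point) in 9 pathway lists (rows), filled orange (higher) or blue (lower) at an adjusted p under 0.05 from limma, with names for most of the genes described in the text. Faim2 (1.20) is farthest to the right and Ghitm (-1.03) farthest to the left, both in the TMBIM and FAIM family.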

How the data were processed

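Total RNA of 832/13 INS1 β cells with the GFP virus (8 arrays) or the Pax5 virus (8 arrays) was hybridized to 1-colour Affymetrix GeneChip arrays. Per the labels, the authors ran Transcriptome Analysis Console with RMA and deposited log2 values for 23188 transcript clusters, and no version or setting is stated in the sources used here. RMA corrects background, normalizes between arrays and summarises probes, which makes arrays comparable but not genes. Scanner files were not used here. Precision depends on the number of arrays. The annotation gave 15049 clusters a symbol of 1 gene each and left 8139 unnamed. Symbols were updated by gene number to those of the GRCr8 annotation, and the cluster with the highest mean was taken for a symbol with several.

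The deposited values were used without a filter or further scaling. The main fit used lmFit and eBayes of limma 3.58.1 in R 4.3.3, with a fixed term for each experiment, and p was corrected over all clusters (Benjamini-Hochberg, threshold 0.05). Single genes were also tested by flipping the signs of the 8 differences (exact, 256 arrangements, 2-sided), and relations to the Pax5 difference by exact permutation over 40320 orders, in Python 3.11.15 with scipy 1.17.1. Arrays were paired by the experiment number in the sample titles. As a check, the deviations of arrays with the same number from their group means correlated at -0.749 to -0.704, against -0.0893 to 0.259 for other numbers.

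The genes and lists were chosen with earlier results of these data known. Named are the 10 genes, Pax5, up to 3 other genes of each pathway list that passed with the lowest p, and the 3 clusters most like and most unlike Faim2 over the experiments. Genes named as not passing, Chuk, Nfkbib, Sharpin and the markers were chosen after their values were seen. The GC box was added after the other motifs. As alternatives, the block was dropped, arrays were quantile normalized, centred on their medians or weighted, and the dimmest 30% of clusters were left out. Trended and robust eBayes, the paired t test that a legend of the methods names, a threshold of 0.01 and the omission of single experiments were also tried. Leaving out experiments 1 and 2 together was added after seeing the data. The test was tried on simulated data before use. There, both arrays of an experiment shared a shift, unlike the mirrored arrays here, so the trial does not check the fit for mirrored arrays.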

Additional observations from a re-analysis of the deposited data

Results flagged for a closer look

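Casp8 in the Pax5 array of experiment 4 had a log2 value of 5.31, far from the other 7 Pax5 arrays, of which the nearest was at 5.08. The gap was 0.561 of the range of the group. The GFP array of the same experiment had the lowest Casp8 value of its group, 4.77. This was the only such value in 54 groups of 8 arrays examined, and chance would give about 2.7.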

How the results depend on the processing

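Faim2, Dapk1 and Cflar were higher at an adjusted p under 0.05 in each of the 16 alternatives fitted, with log2 fold changes of 0.825 to 1.34 for Faim2 (1.02 to 1.34 with single experiments left out), and none of the 10 genes other than Casp8 changed direction. The log2 fold change of Casp8 was -0.06 without experiment 4 and -0.06 to 0.0529 over all single experiments left out. Without the replicate block, 5 of the 10 genes were higher in place of 3, with Fas and Fadd added, and of the other pathway genes 23 were higher and 17 lower in place of 10 and 10. Over all clusters the fit without the replicate block called 45.6% and the methods' paired test 26.2%. Same-numbered arrays deviated in opposite directions, and the block then widens the error. The number of genes of the set called lower, 1 with Birc2, was 0 in the methods' paired test, at an adjusted p under 0.01 and without experiments 1 and 2, which was chosen after seeing the data, and 0 to 1 with single experiments left out. At an adjusted p under 0.01, 5 of the other pathway genes were higher. With single experiments left out, 9 to 11 of them were higher and 9 to 11 lower. Scalings and the filter on dim clusters moved the median of all clusters by -0.00875 to 0.005. A mean over several clusters of a symbol was not run, since each of the 10 genes has 1 cluster. Signal over background of single probes was not used here, which limits what the low values of Casp8, Birc3, Fas, Cd40 and Tnfsf9 can show.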
